A study of Mus musculus with 6 samples.

Results

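The angiopoietin-TIE axis is described here by 6 genes of the 54532 in the deposited expression table, taken by symbol: the receptors Tek and Tie1, the ligands Angpt1 and Angpt2, the angiopoietin-like gene Angptl4 and the transcription factor gene Foxo1. They were measured by RNA sequencing of messenger RNA from primary brain microvascular endothelial cells, the lining cells of brain capillaries. The treated group received DEVD mIL-36β, a processed form of mouse interleukin-36β (an IL-1 family cytokine), at 100 ng/ml for 24 h (3 libraries), and the other was left untreated (3 libraries). All cells were wild type, came from C57BL/6J brains without olfactory bulb, cerebellum and meninges, passed through puromycin selection and grew on collagen IV and fibronectin; no vehicle or time is given for the untreated cells, so time in culture and IL-36β cannot be told apart. Whether the 3 libraries of a group stem from different animals or cultures is not stated, so a p-value reflects only library-to-library spread, which may be technical.

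TIE2, the protein of Tek, is a receptor tyrosine kinase of endothelial cells. ANGPT1, made mainly by mural cells, activates it and thereby steadies vessels; ANGPT2, made by endothelium and stored in Weibel-Palade bodies, competes with ANGPT1 and can act as a weak agonist or as an antagonist, and TIE1 is a co-receptor that modulates TIE2. Active TIE2 signals through AKT, which phosphorylates FOXO1 and keeps it out of the nucleus, and Angpt2 is itself a known FOXO1 target gene. ANGPTL4 shares the family fold but inhibits lipoprotein lipase and is not a TIE2 ligand.

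The promoters of the receptor genes Tek and Tie1, which lie on the same chromosome and encode partner receptors, are shown first. Each run holds 300 bases around the RefSeq start (GRCm38.p6, 5′ to 3′ on the gene's strand: Tek chr4:94739039-94739338, plus; Tie1 chr4:118489800-118490099, minus), and capitals mark GGAA, the core bound by ETS factors, on either strand.
Tek: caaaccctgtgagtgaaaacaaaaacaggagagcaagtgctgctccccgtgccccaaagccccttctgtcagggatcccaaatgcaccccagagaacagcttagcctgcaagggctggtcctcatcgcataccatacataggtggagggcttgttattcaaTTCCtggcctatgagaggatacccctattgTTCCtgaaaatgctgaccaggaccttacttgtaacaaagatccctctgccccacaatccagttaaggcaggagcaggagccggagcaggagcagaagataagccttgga
Tie1: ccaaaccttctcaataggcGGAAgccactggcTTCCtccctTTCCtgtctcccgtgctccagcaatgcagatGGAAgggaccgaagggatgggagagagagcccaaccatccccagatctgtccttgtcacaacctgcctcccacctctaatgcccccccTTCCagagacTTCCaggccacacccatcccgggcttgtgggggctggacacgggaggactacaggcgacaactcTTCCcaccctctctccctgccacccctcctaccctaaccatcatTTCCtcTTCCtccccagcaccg
The Tie1 promoter held 9 matches of GGAA and the Tek promoter 2. Over 32851 RefSeq promoters of this length, 96.0% held at least 1 match, the median was 3 and 1.59% held 9 or more. Neither promoter, nor that of Foxo1, held the FOXO motif GTAAACA on either strand, which 3.65% of these promoters hold and which does not overlap the ETS core. These are matches of letters and not binding sites, and a link of their number to RNA level was not tested.

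Levels are given as FPKM, reads scaled by gene length and by 1 divisor per library, so that genes of different length can be set side by side. Angpt2 stood highest of the 6 in both groups, at 1273 ± 220 FPKM in IL-36β cells and 937 ± 125 FPKM in untreated cells (SD, n = 3 each), and ranked 17 of all genes in the table by its mean over the 6 libraries. Angptl4 came next, then Tie1, and the libraries of these neighbours did not overlap within either group. Foxo1 and Tek were the lowest of the 5 genes with a level above the filter. Their libraries overlapped in IL-36β cells, at 14.3 ± 1.73 FPKM for Foxo1 and 14.4 ± 2.80 FPKM for Tek, and did not overlap in untreated cells, at 13.9 ± 2.30 FPKM for Foxo1 and 9.92 ± 1.47 FPKM for Tek. Angpt1 was close to 0 in every library.

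The libraries held 15180389 to 19544689 reads assigned to genes. The 12 endothelial markers summed to 2783 to 3435 FPKM in IL-36β libraries and 2677 to 3083 FPKM in untreated libraries, led by Cdh5, Emcn and Pecam1. The 12 pericyte and smooth muscle markers summed to 358 to 808 FPKM in IL-36β libraries and 401 to 1361 FPKM in untreated libraries, most of it Acta2. Of the other 11, Tagln averaged 17.7 FPKM in IL-36β and 15.4 FPKM in untreated cells, and Pdgfrb, a defining pericyte marker, 2.54 FPKM in IL-36β and 2.63 FPKM in untreated cells. Myh11, Des, Notch3 and Cspg4 averaged between 1.08 and 8.07 FPKM in each group, and Rgs5, Kcnj8, Abcc9, Vtn and Higd1b were below 0.5 FPKM. The fibroblast list (6 genes, led by Col1a2 and Col1a1) summed to 0.929 to 3.56 FPKM in IL-36β and 0.724 to 1.54 FPKM in untreated libraries. Astrocyte markers (6, led by Gja1 and Aldh1l1) summed to 3.56 to 4.87 FPKM in IL-36β and 3.81 to 5.27 FPKM in untreated libraries, with Aqp4 and Slc1a3 without a read. Microglia and macrophage markers (7, led by Aif1 and Tmem119) summed to 0.0938 to 0.356 FPKM in IL-36β and 0.142 to 0.222 FPKM in untreated libraries, with C1qa without a read. Neuron and oligodendrocyte markers (8) summed to 6.66 to 24.3 FPKM in IL-36β and 5.35 to 13.6 FPKM in untreated libraries, almost all of it Tubb3 ahead of Rbfox3, with Snap25 and Olig2 without a read. In limma and edgeR no marker of any of these lists passed the threshold. DESeq2 called 1.29% of all genes higher and 0.808% lower. Among them the tight junction gene Cldn5 was higher (DESeq2 adjusted p = 0.0222). The transporter gene Slco1a4 (DESeq2 adjusted p = 1.58e-05) and the smooth muscle gene Myh11 (DESeq2 adjusted p = 0.00447) were lower. All 3 were named after their values were seen.

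The series title ties endothelial IL-36 receptor signalling to vessel stability, the question that sets IL-36β against untreated cells here. None of the 6 genes passed the threshold of the test across all genes (limma on log2(FPKM + 0.5), Benjamini-Hochberg adjusted p under 0.05), which 0.182% of the 12618 tested genes passed (0.166% as higher and 0.0159% as lower). Angptl4, Tek and Angpt2 had an unadjusted p under 0.05 with higher values in IL-36β cells; 5.96% of all tested genes did so in that direction and 4.41% in the other. All 5 tested genes had fitted differences above 0, as 50.5% of all tested genes did. Those of Tie1 and Foxo1 were below 0 with a block by library letter, which compares only libraries whose letter occurs in both groups. That of Foxo1 was also below 0 with TPM. The median log2 fold change of the 5 was 0.44, against 0.00 over all tested genes. Tek and Angpt2 were higher in all 3 IL-36β libraries than in any untreated library, which held for 8.95% of tested genes; for 7.24% all 3 were lower. The genes were chosen with earlier results of these data known, so these counts carry no weight as independent evidence. In bulk RNA, fewer cells of a type and less RNA per cell cannot be told apart.

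**Figure D1:**
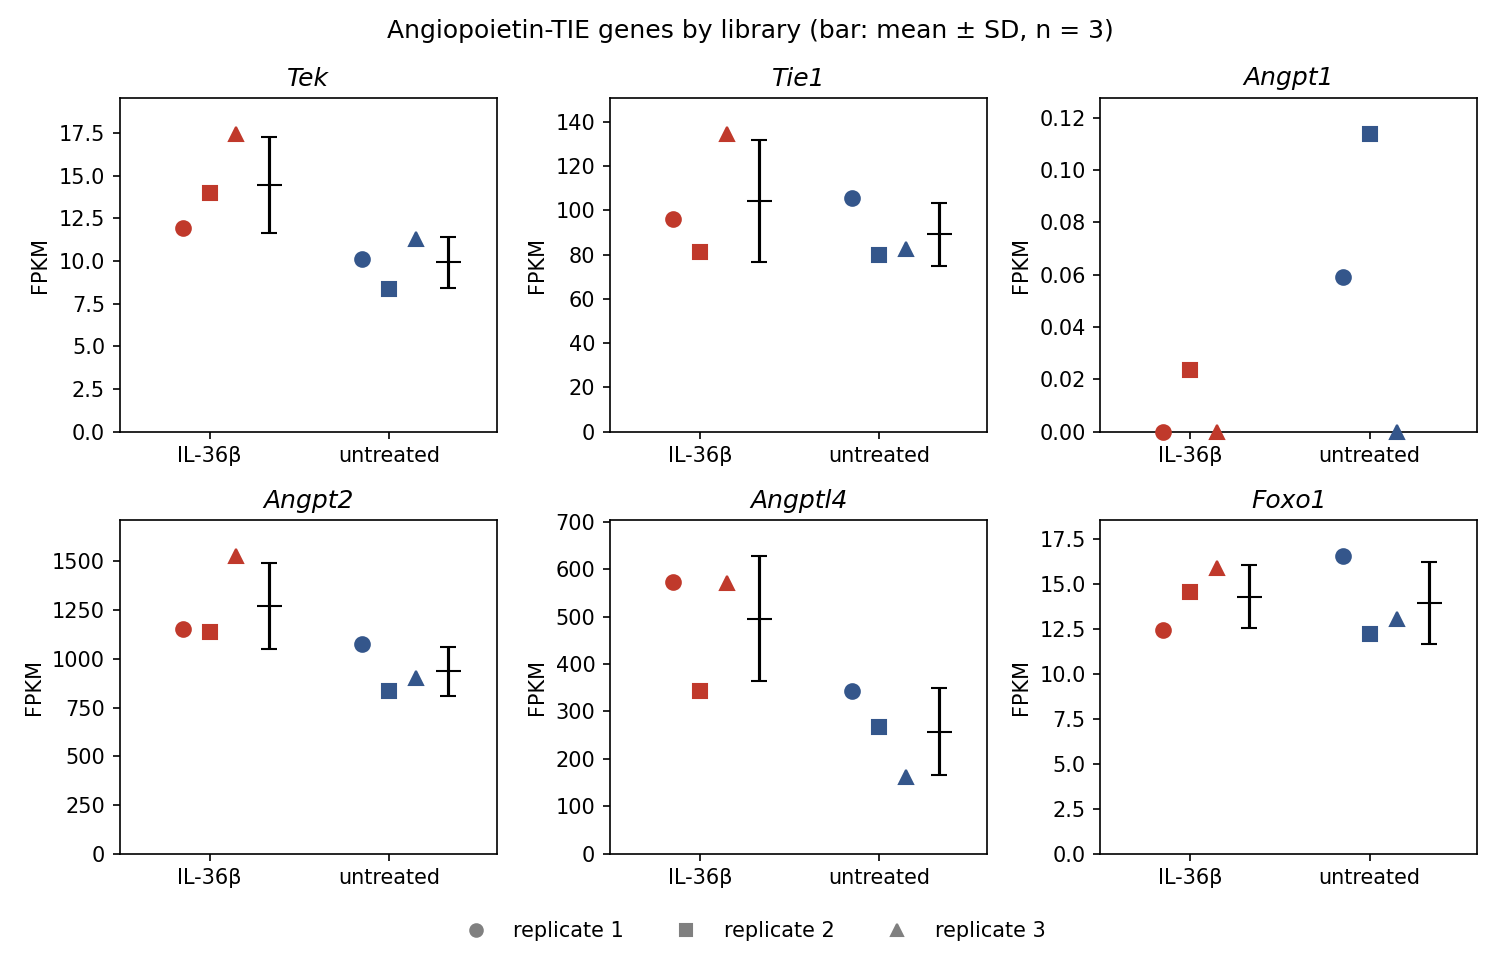
FPKM of the 6 genes in each library, IL-36β left of untreated; symbols give the replicate number, and the bar is the mean ± SD (n = 3), left out for Angpt1, which has libraries at 0. Tek and Angpt2 show no overlap of groups, Angptl4 touches at 343.8 and 343.9 FPKM, and Tie1 and Foxo1 overlap.

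Among the receptors, Tek (ENSMUSG00000006386, chromosome 4, 94739289 to 94874976, plus strand, GRCm38 as for all coordinates here) had 11.9, 14.0 and 17.5 FPKM in IL-36β replicates 1 to 3, against 10.1, 8.36 and 11.3 FPKM in untreated replicates 1 to 3. The lowest IL-36β library and the highest untreated library were 11.9 and 11.3 FPKM, so the groups lie close together without overlap. The fold was 1.43, with 95% limits of 1.09 and 1.86 (adjusted p = 0.362 in limma; 3450 reads in the IL-36β and 2390 in the untreated group). Tie1 (ENSMUSG00000033191, chromosome 4, 118471191 to 118490061, minus strand) had 96.3, 81.2 and 135 FPKM in IL-36β libraries, against 105, 79.6 and 82.4 FPKM in untreated libraries. Only IL-36β replicate 3 lay above the untreated range, and the fold of 1.15 (0.83 to 1.59; limma adjusted p = 0.751) did not exceed the spread between libraries. Without that library the Tie1 difference was 0.000483 on the log2 scale.

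Tie1 exceeded Tek in every library on the per-length scale. The ratio of Tie1 to Tek was 8.09, 5.81 and 7.71 in IL-36β libraries and 10.4, 9.53 and 7.30 in untreated libraries. The groups overlapped, with untreated replicate 3 inside the IL-36β range.

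Of the ligands, Angpt2 (ENSMUSG00000031465, chromosome 8, 18690263 to 18741562, minus strand) had 1153, 1139 and 1527 FPKM in IL-36β libraries, against 1076, 833 and 902 FPKM in untreated libraries. IL-36β replicate 3 was the highest library, and untreated replicate 1 lay closest to the other two IL-36β libraries. IL-36β replicate 3 was also the highest library for Tek and Tie1. It had the highest sum of the 12 endothelial markers, 3435 FPKM, against 2677 to 3083 FPKM in untreated libraries. The markers were split in this library. Cdh5 (1126 FPKM), Pecam1, Erg, Cldn5, Esam and Cd34 were at their highest of all libraries, and Emcn (380 FPKM) and Slco1a4 (0.454 FPKM) at their lowest. The part of endothelial content in the results was not tested. The fold was 1.35 (95% confidence interval 1.02 to 1.80; limma adjusted p = 0.456). The ratio of Angpt2 to Tek was 96.8, 81.5 and 87.5 in IL-36β libraries and 106, 99.6 and 79.9 in untreated libraries. These ranges overlapped. Set against Angptl4, Angpt2 was 2.01, 3.31 and 2.68 times as high in IL-36β libraries and 3.13, 3.12 and 5.59 times in untreated libraries, also with overlap.

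Angpt2 lies inside Mcph1, a DNA damage response gene on the opposite strand (chromosome 8, 18595131 to 18803189 in GENCODE M21). Exons of the 2 genes share 0 bases in that annotation. The sources used here do not say whether reads were counted by strand. Opposite-strand reads over an Angpt2 exon can thus not be told apart, though no annotated Mcph1 exon lies there. Mcph1 had 8221 reads over all libraries, against 237588 reads of Angpt2 in IL-36β and 177890 in untreated libraries. Mcph1 had 11.7, 12.4 and 11.7 FPKM in IL-36β libraries, against 10.6, 8.26 and 7.47 FPKM in untreated libraries. The fold was 1.35 (1.09 to 1.68, limma adjusted p = 0.346). All IL-36β libraries were higher, as for 8.95% of all tested genes.

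Angpt1 (ENSMUSG00000022309, chromosome 15, 42424723 to 42676977, minus strand) had 0, 2 and 0 reads in IL-36β replicates 1 to 3 and 5, 12 and 0 reads in untreated replicates 1 to 3. It was below the filter of 0.5 FPKM in at least 3 libraries and was not tested. A library without a read allows up to 3 reads, or 0.0317 to 0.0375 FPKM in the libraries concerned. Over each group the 2 and 17 reads give a ratio of IL-36β to untreated of 0.122, with an exact 95% interval of 0.0136 to 0.513 that covers counting error only. The groups overlapped, since untreated replicate 3 had no read. Pooled over libraries, Angpt1 stood at 0.00766 FPKM in IL-36β cells (exact Poisson limits 0.000928 and 0.0277) and 0.0630 FPKM in untreated cells (0.0367 and 0.101), against 1284 FPKM of Angpt2 in IL-36β cells and 929 FPKM in untreated cells. Gm17473, an antisense gene that shares 737 exon bases with Angpt1, had 0 reads.

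Angptl4 (ENSMUSG00000002289, chromosome 17, 33773750 to 33781575, minus strand; its last base is 33781830 in GENCODE M21) had 573, 344 and 570 FPKM in IL-36β libraries, against 344, 267 and 161 FPKM in untreated libraries. The groups met at 343.8 FPKM in IL-36β replicate 2 and 343.9 FPKM in untreated replicate 1. Its fold of 1.96 was the highest of the 5 tested genes (95% confidence interval 1.19 to 3.26; limma adjusted p = 0.362). DESeq2 on reads recovered from the FPKM called it higher (1.91-fold, adjusted p = 0.0158; 1.29% of genes were called higher this way), and edgeR did not (adjusted p = 0.291; 0.262% of genes called higher and 0.0317% lower). Untreated replicate 3, the lowest library for Angptl4, had the highest sum of the pericyte and smooth muscle markers, 1361 FPKM, of which Acta2 was 1323 FPKM. Among untreated libraries Tagln was also highest there (25.1 FPKM), as were Kcnj8 (0.281 FPKM), Vtn (0.128 FPKM) and Abcc9 (0.109 FPKM), all near the floor. Myh11 (6.02 FPKM), Des (1.21 FPKM), Notch3 (0.922 FPKM) and Rgs5 (0.243 FPKM) were lowest there. Pdgfrb was at 2.46 FPKM, against 2.46 and 2.97 FPKM in untreated replicates 1 and 2, and Cspg4 lay between its other untreated values. The markers were thus split in this library, and the part of those cells in the result was not tested.

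Foxo1 (ENSMUSG00000044167, chromosome 3, 52268336 to 52353221, plus strand) had 12.4, 14.5 and 15.9 FPKM in IL-36β libraries, against 16.5, 12.2 and 13.0 FPKM in untreated libraries. The ranges lay on top of each other, with a fold of 1.03 (0.82 to 1.30; limma adjusted p = 0.937), and the sign of the difference flipped under TPM scaling. Its antisense gene Gm20402, which shares 674 exon bases with it, had 0 reads in the table. FOXO1 is controlled largely by phosphorylation and location, which RNA levels do not measure.

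Libraries are also lettered, and those named A or B (IL-36β 1, untreated 1 and 2) are known from earlier work on these data to differ from D and E (IL-36β 2 and 3, untreated 3), so values within each set stand beside the pooled ones. Angptl4 was 1.89-fold higher within A and B and 2.74-fold higher within D and E. Tek was 1.28-fold and 1.37-fold higher and Angpt2 1.22-fold and 1.46-fold higher in the same sets, whereas Foxo1 was at 0.88-fold and 1.16-fold. With the set as a term in limma the folds were 2.28 for Angptl4 (1.55 to 3.35; adjusted p = 0.104), 1.32 for Tek (1.07 to 1.63; adjusted p = 0.260) and 1.33 for Angpt2 (1.00 to 1.78; adjusted p = 0.367); this fit called 0.674% of genes higher and 0.135% lower. Letters A and D each occur in both groups: from these pairs alone the fold was 1.67 and 2.13 for Angptl4, 1.17 and 1.23 for Tek, 1.07 and 1.26 for Angpt2, and 0.914 and 0.986 for Tie1. The sets were picked from these same data, so p-values and intervals that use them may be too small.

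**Figure D2:**
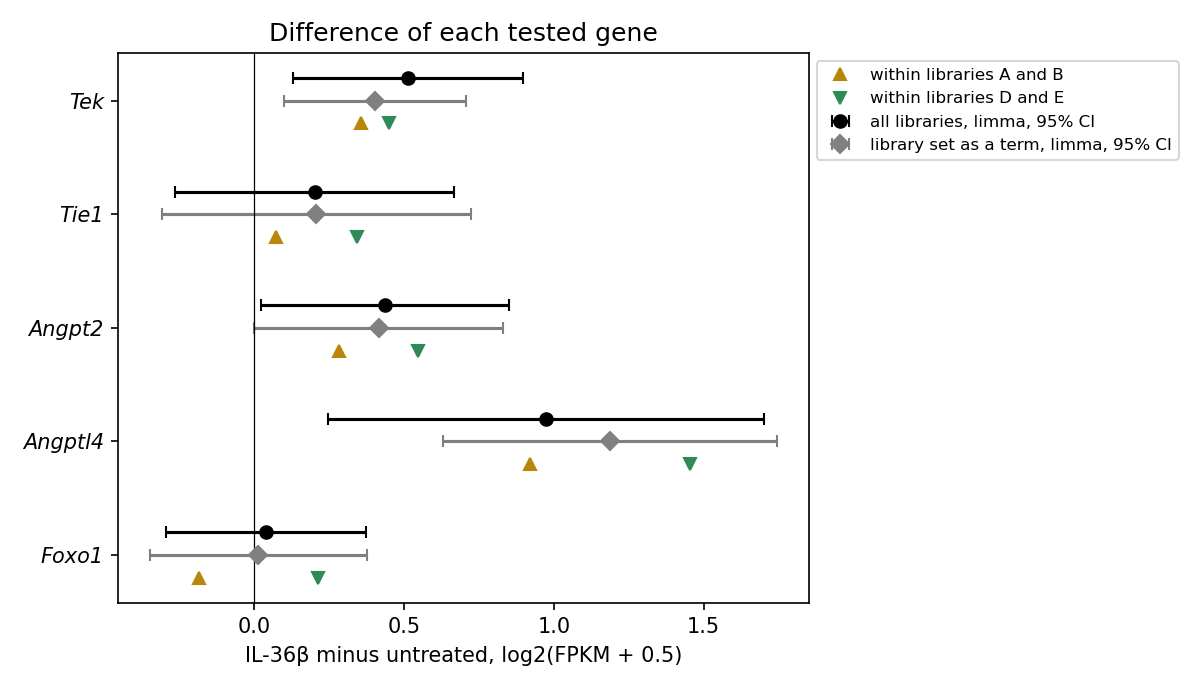
Difference of IL-36β minus untreated on the log2(FPKM + 0.5) scale for the 5 tested genes: all libraries and the fit with the library set as a term, each with its 95% confidence interval from limma, and the differences within libraries A and B and within D and E. Angptl4 lies farthest to the right in each of the 4 values, Tek and Angpt2 lie above 0 in all 4, and Foxo1 lies on both sides of 0.

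The receptor complex, its other ligands and its sheddases were followed in a list of 12 genes. Of these, 10 were tested and none passed in limma or edgeR. Before adjustment 3 had p under 0.05, as 10.4% of all genes did. Of the 3, 2 were higher (Itgav and Itgb3) and 1 lower (Ptprb), beside 5.96% and 4.41% of all tested genes. DESeq2 called 1, with 0.808% of all genes called lower. Ptprb, which encodes VE-PTP, a phosphatase that restrains TIE2 and associates with VE-cadherin, had 16.7, 20.0 and 19.9 FPKM in IL-36β libraries, against 30.9, 28.9 and 29.1 FPKM in untreated libraries. All IL-36β libraries were lower, as for 7.24% of all tested genes. The fold was 0.64 (0.55 to 0.75), but the adjusted p in limma was 0.0904 and in edgeR 0.0569. Ptprb passed as lower in DESeq2 (adjusted p = 1.88e-05) and with the library set as a term (0.63-fold, limma adjusted p = 0.0414), and in none of the other 16 alternatives. It was at 0.566-fold within A and B and 0.691-fold within D and E.

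The most abundant genes of this list overlapped between groups. Cdh5, VE-cadherin, was at 974 ± 135 FPKM in IL-36β and 956 ± 97.1 FPKM in untreated cells. Itgb1 and Itga5 encode integrin chains that can bind angiopoietins. Itgb1 was at 776 ± 150 FPKM in IL-36β and 890 ± 116 FPKM in untreated cells, and Itga5 at 305 ± 93.7 FPKM in IL-36β and 297 ± 170 FPKM in untreated cells. Angpt4, the remaining angiopoietin gene, had 21 reads in IL-36β and 36 in untreated libraries, and Svep1, a large matrix protein that binds TIE1, had 1 read in IL-36β and 0 in untreated libraries.

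Downstream, 20 of 22 genes listed for the relay from TIE2 to AKT and ERK, with adaptor relatives, were tested. Their median log2 fold change was 0.00, against 0.00 over all tested genes. The 1 gene past the threshold in limma, beside 0.182% of all tested genes, was Tnip1, also called ABIN-1. It encodes an NF-κB-restraining adaptor whose relative ABIN-2 binds TIE2. Whether Tnip1 takes part in TIE2 signalling was not tested. Tnip1 rose, with 82.3, 58.6 and 71.4 FPKM in IL-36β libraries, against 32.2, 30.6 and 23.1 FPKM in untreated libraries, 2.45-fold (1.86 to 3.21; limma adjusted p = 0.0485). The call was lost when any 1 of the 6 libraries was left out (limma adjusted p from 0.0752 to 0.187). Tnip2, which encodes ABIN-2 itself, was at 5.98 ± 0.685 FPKM in IL-36β and 5.54 ± 0.312 FPKM in untreated cells. Akt1, the kinase that phosphorylates FOXO1, was at 97.2 ± 7.77 FPKM in IL-36β and 86.3 ± 5.16 FPKM in untreated cells, and the adaptor Grb2 at 35.2 ± 2.33 FPKM in IL-36β and 33.1 ± 1.47 FPKM in untreated cells. Of this list 3 genes (Tnip1, Pik3cd and Pdpk1) were under 0.05 before adjustment, beside 10.4% of all tested genes. The calls of DESeq2, which called 1.29% of all genes higher and 0.808% lower, were 2 higher genes, Tnip1 and the kinase gene Pik3cd, Pik3cd and Pdpk1 being named after their values were seen.

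**Figure D3:**
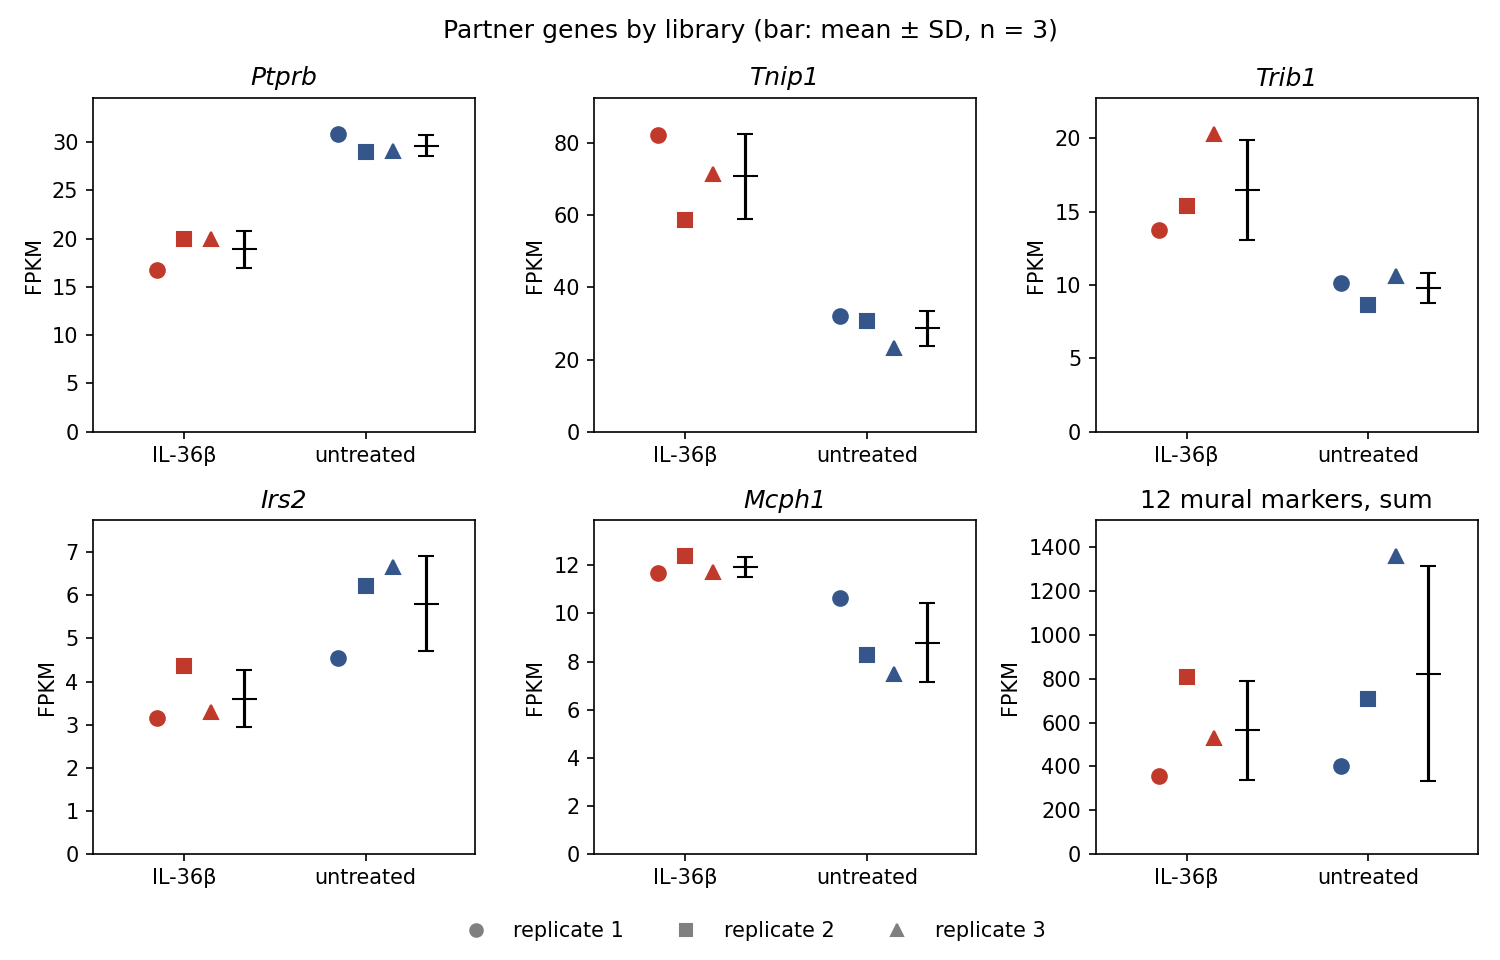
FPKM by library of 5 partner genes and of the sum of 12 pericyte and smooth muscle (mural) markers, IL-36β left of untreated; symbols give the replicate number and the bar is the mean ± SD (n = 3). Ptprb is lower and Tnip1, Trib1 and Mcph1 are higher in all IL-36β libraries, and Irs2 is lower. The marker sum is highest in untreated replicate 3 at 1361 FPKM, of which Acta2 is 1323 FPKM.

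The other FOXO genes had lower levels than Foxo1. Foxo3 had 8.49, 8.35 and 8.45 FPKM in IL-36β libraries, against 10.7, 10.0 and 9.51 FPKM in untreated libraries. The fold was 0.85 (0.73 to 0.97, limma adjusted p = 0.416). All IL-36β libraries were lower, as for 7.24% of all tested genes. Foxo4 was at 6.52 ± 1.18 FPKM in IL-36β and 6.76 ± 0.660 FPKM in untreated cells, and Foxo6 with 17 reads in IL-36β and 14 in untreated libraries was not tested.

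Known FOXO1 target genes did not move one way. All 24 listed genes were tested, 12 had fitted values above 0 and 12 below, and the median log2 fold change was -0.02. None passed in limma or edgeR; before adjustment 4 higher and 1 lower were under 0.05, beside 5.96% and 4.41% of all tested genes. DESeq2 called 3 higher and 1 lower, beside 1.29% and 0.808% of all genes. The 3 most abundant by the mean over all 6 libraries were Ctgf, Apln and Angpt2 itself. Ctgf (Ccn2), a matrix-associated growth factor gene, was at 1378 ± 249 FPKM in IL-36β and 1578 ± 339 FPKM in untreated cells. Apln, an endothelial tip cell peptide gene, was at 1559 ± 170 FPKM in IL-36β and 1385 ± 137 FPKM in untreated cells. The genes called by DESeq2 were chosen after their values were seen. Trib1, a pseudokinase gene, had 13.7, 15.4 and 20.3 FPKM in IL-36β libraries, against 10.2, 8.63 and 10.6 FPKM in untreated libraries (1.63-fold; DESeq2 adjusted p = 0.00222, limma 0.191). Sod2, the mitochondrial superoxide dismutase, had 7.56, 6.89 and 6.12 FPKM in IL-36β libraries, against 4.31, 4.62 and 4.32 FPKM in untreated libraries (1.49-fold; DESeq2 adjusted p = 0.00113, limma 0.131). Gadd45a, a stress and growth arrest gene, was at 33.8 ± 1.82 FPKM in IL-36β and 24.3 ± 1.57 FPKM in untreated cells (DESeq2 adjusted p = 0.0258, limma 0.140). Irs2, an insulin receptor substrate, was at 3.60 ± 0.656 FPKM in IL-36β and 5.81 ± 1.11 FPKM in untreated cells (0.65-fold; DESeq2 adjusted p = 0.0272, limma 0.298).

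**Figure D4:**
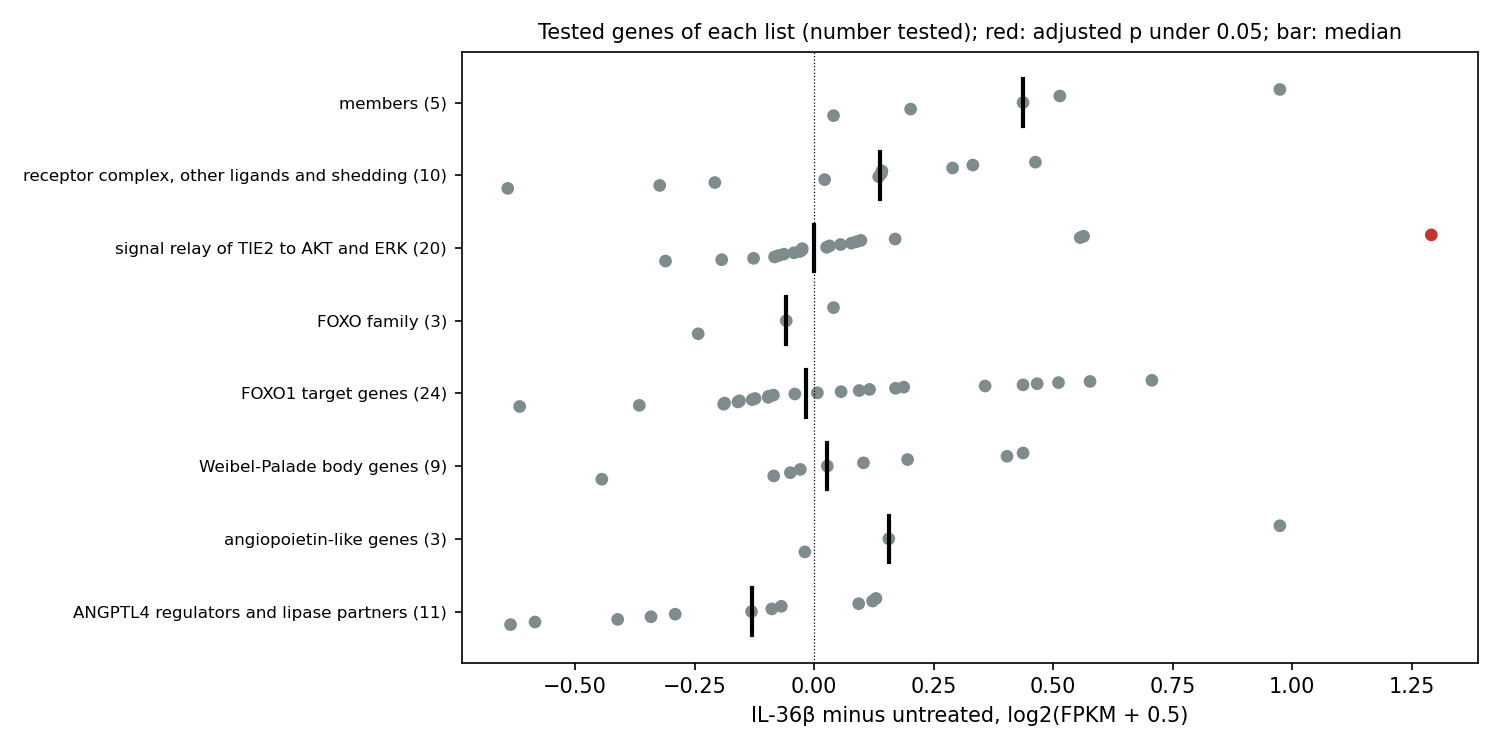
Fold changes of the tested genes of 8 lists on the log2(FPKM + 0.5) scale, IL-36β minus untreated, with each list's number tested in brackets; bars are medians and red marks an adjusted p under 0.05 in limma. Tnip1 in the signal relay list is the only red point, and the medians lie between -0.13 and 0.44.

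Around Angptl4, the angiopoietin-like relatives were far lower. Angptl6 was at 0.797 ± 0.181 FPKM in IL-36β and 0.814 ± 0.171 FPKM in untreated cells and Angptl2 at 0.722 ± 0.254 FPKM in IL-36β and 0.589 ± 0.156 FPKM in untreated cells; the other 4 had 0 to 5 reads per group. The list of transcription factors and lipid genes tied to ANGPTL4 had 11 of 16 members tested and none called by limma, DESeq2 or edgeR, with 3 lower (Cpt1a, Nr3c1 and Pparg) and 0 higher under 0.05 before adjustment, beside 4.41% lower and 5.96% higher over all tested genes. Its median log2 fold change was -0.13, and 3 of the 11 fitted values were above 0, beside 50.5% over all tested genes. Epas1, which encodes HIF-2α, was at 199 ± 32.7 FPKM in IL-36β and 217 ± 22.7 FPKM in untreated cells, and Hif1a at 47.4 ± 6.75 FPKM in IL-36β and 43.0 ± 1.58 FPKM in untreated cells. Plin2, a lipid droplet coat protein gene, had 180, 118 and 93.2 FPKM in IL-36β libraries, against 167, 203 and 137 FPKM in untreated libraries, with overlap. Pdk4, a kinase gene of fuel choice, had 18.2, 11.5 and 8.52 FPKM in IL-36β libraries, against 22.3, 23.8 and 13.2 FPKM in untreated libraries, with overlap of groups and a fold of 0.64 (0.39 to 1.06; limma adjusted p = 0.533). Lpl, the lipase that ANGPTL4 inhibits, had 36 reads in IL-36β and 90 in untreated libraries and was not tested.

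Likeness of pattern was measured as Pearson's r of log2(FPKM + 0.5) over the 6 libraries, among 10189 other protein-coding genes with a mean of at least 1 FPKM. The libraries are shared by all genes and many genes exceed an r of 0.9 (45 for Foxo1 and 301 for Angpt2 at the ends), so these are descriptions. Closest to Tek were Lysmd2, Sh2d5 and Acin1, with r of 0.997, 0.996 and 0.995. Closest to Angpt2 were Ralgds, Akap12 and Clec1a (0.998, 0.993 and 0.992), to Angptl4 Ppm1j, Nod2 and Lix1l (0.997, 0.996 and 0.996), to Tie1 Ptpn1, Plcg1 and Mbtps1 (0.991, 0.988 and 0.986), and to Foxo1 Tnks2, Tnfrsf26 and Sft2d2 (0.979, 0.974 and 0.972). Among the 5 genes themselves, Tek and Angpt2 were most alike (r = 0.894), Tie1 and Angpt2 came next (0.848), and Angptl4 and Foxo1 were least alike (0.298).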

How the data were processed

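Messenger RNA libraries came from a stranded kit and an Illumina NextSeq instrument, per the labels' protocols. Per the submitters' processing notes the tools were fastp, HISAT2 2.05, StringTie, featureCounts 1.50-p3 and DESeq2 1.38.3 with build GRCm38, without roles or settings. The authors deposited FPKM for 54532 genes and raw counts for 660 genes, none of them among the 6 described. The authors' second table also holds 8 columns of 4 libraries that match no label; these were not used. FPKM times gene length gave whole reads after 1 divisor per library in 100% of values (within 0.01), and these equal the deposited counts in all 660 genes.

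Libraries were grouped by title and columns matched by library name. The test was limma 3.58.1 (R 4.3.3, trended prior, two-sided) on log2(FPKM + 0.5) for genes with at least 0.5 FPKM in at least 3 of 6 libraries; this scale understates changes of low genes. Alternatives were other pseudocounts, filters and scalings, a robust prior, blocks, the library set, each library left out, and edgeR 4.0.16 and DESeq2 1.42.0 on recovered reads. The fit was tested on simulated data. Genes and lists were chosen with earlier results of these data known. Named genes were the 6 genes, list genes past the threshold, the 3 most abundant per list (2 for other cell types), 8 fixed partners and the 3 most alike genes. Outside this rule, Cldn5, Slco1a4, Myh11, Itgav, Itgb3, Pik3cd, Pdpk1, Trib1, Sod2, Gadd45a, Irs2, Cpt1a, Nr3c1, Pparg and Selp were picked with their values seen. Overlapping genes, the other mural markers, markers without a read, Tnip2, Foxo6 and Lpl were also named. Ccn1 and Ccn2 were matched as Cyr61 and Ctgf through the RefSeq table. Promoter sequences are from RefSeq (GRCm38.p6), which gave entries for 3 of the 6 genes. Intervals and floors of reads cover counting error only.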

Additional observations from a re-analysis of the deposited data

How the results depend on the processing

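The count of 23 genes past the threshold in limma rested on every library: it was 2 to 8 with each library left out in turn. It was 0 without a filter on low values (1751 at an unadjusted p under 0.05; edgeR and DESeq2 were run only on the filtered genes), 15 with TPM, 13 with a replicate block by title number, 78 with a replicate block by library letter, 102 with the library set as a term, 37 in edgeR and 260 in DESeq2. Tek and Angpt2 stayed above 0 and did not pass the threshold in any of the 18 alternatives (adjusted p of 0.105 to 0.856 for Tek and 0.167 to 0.888 for Angpt2), at 0.26 to 0.64 for Tek and 0.22 to 0.54 for Angpt2 on the log2 scale. Angptl4 stayed above 0 at 0.67 to 1.22, and passed in 1 alternative, DESeq2 (0.94). Tie1 turned to -0.075 with the library letter block, and was 0.000483 to 0.36 with a library left out. Foxo1 turned to -0.043 with TPM and -0.12 with the library letter block, and was -0.045 to 0.17 with a library left out. The cause of these changes was not tested. Same-numbered libraries deviated from their group means with r of 0.21, -0.14 and 0.21, so the title numbers were not taken as pairs. Same-lettered libraries had r of 0.21 for letter A and 0.28 for letter D. Letters B and E occur in 1 library each, so the fit with the letter block draws its differences from the A and D pairs only. IL-36β replicate 1 correlated best with untreated replicate 2 (0.39). Neither the block by number nor the block by letter changed a call of the 5 genes. Tnip1 was past the threshold in 7 of 18 alternatives and Ptprb in 2. Angpt1 could not be judged at 0 to 12 reads per library.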

Other observations

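Weibel-Palade bodies, the endothelial storage granules that hold ANGPT2, were followed in a list of 11 genes, of which 9 were tested. None passed in limma, edgeR or DESeq2, 1 was higher and 1 lower at an unadjusted p under 0.05 (Angpt2 and Vwf; 5.96% and 4.41% of all tested genes), and the median log2 fold change was 0.03. Igfbp7, a secreted growth factor binding protein, was at 878 ± 197 FPKM in IL-36β and 654 ± 30.9 FPKM in untreated cells, and the vasoconstrictor peptide gene Edn1 at 343 ± 36.3 FPKM in IL-36β and 354 ± 74.8 FPKM in untreated cells. Vwf, the main cargo of the granules, had 5.07, 3.37 and 4.20 FPKM in IL-36β libraries, against 7.18, 5.81 and 4.76 FPKM in untreated libraries, a fold of 0.73 (95% confidence interval 0.55 to 0.99; limma adjusted p = 0.468). Selp, which encodes P-selectin and was picked with its values in view, had 10, 76 and 101 reads in IL-36β libraries and 1, 1 and 2 reads in untreated libraries; it was below the filter and was not tested.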
